A study of Mus musculus with 3 samples.

Results

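The cadherins and protocadherins of the mouse embryo were taken from the FPKM table by symbol, as every gene named *Cdh* followed by digits only or with a name that starts with *Pcdh*. This gave 94 of 23421 genes, of which 23 were cadherins and 71 protocadherins. The rule used no measured value. RNA was sequenced from embryos at E6.5 (embryonic day 6.5) of the 129/SvEv strain in 3 libraries, 1 each of wild type, *tw18*/+ and *tw18*/*tw18*, all from matings of *tw18*/+ mice. The *tw18* allele is a deletion on Chr 17 that removes *Ppp2r1a*, the gene of a scaffold subunit of the phosphatase PP2A, together with neighboring genes. In these libraries the loss of *Ppp2r1a* and the loss of its neighbors cannot be told apart. The paper attributes the embryonic lethality to *Ppp2r1a*, from a knockout of that gene and a transgene that rescued *tw18*/*tw18* embryos. Neither was sequenced here. The tissue, labelled epiblast, was the embryo proper with its surrounding visceral endoderm, after the extra-embryonic part had been cut off for genotyping. The number of embryos per library is not given in the sources used here. For E6.5 embryos stained by in situ hybridization, the paper describes the mutants as slightly younger in stage. Whether the sequenced embryos differed in stage was not tested, and stage and genotype cannot be told apart in these libraries. With 1 library per genotype no difference below has a replicate check, and no p-value is given. FPKM, the fragments of a gene scaled to the length of its transcript and to the size of the library, is a level per length, so levels can be set side by side between genes.

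Cadherins are transmembrane proteins that hold neighboring cells together through calcium-dependent contacts of their extracellular repeats. The tails of the classical cadherins bind p120-catenin and beta-catenin, and beta-catenin is tied to actin through alpha-catenin. Epiblast cells form an epithelium held by E-cadherin, and cells that leave it through the primitive streak are known to lower E-cadherin and to take up N-cadherin, the cadherin switch of gastrulation. Protocadherins have a similar extracellular part but other tails. Most of their genes stand in the alpha, beta and gamma clusters, which are best known for giving neurons distinct surface identities, and the non-clustered delta protocadherins act in adhesion and cell sorting in many tissues.

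*Ppp2r1a* had FPKM values of 146 in wild type, 81.7 in *tw18*/+ and 12.8 in *tw18*/*tw18*, the order given by the labels. The last value was 8.72% of wild type and not 0, although both copies of the gene are deleted in *tw18*/*tw18*, and the source of these fragments was not tested. From the steps between low FPKM values, 1 fragment on a transcript of 1 kb was worth an estimated 0.0675 FPKM in wild type, 0.048 in *tw18*/+ and 0.0486 in *tw18*/*tw18*, so that the last pair of libraries was 1.41 and 1.39 times as deep as wild type. The values summed to 444064, 455078 and 383409 in that order, and rescaling to equal sums would raise every log2 ratio of *tw18*/*tw18* against wild type by 0.21. Fragment numbers below are estimates from this depth and the annotated transcript length. Their 95% counting intervals cover counting error only, and fragments copied by PCR are not independent molecules. The 10 listed epiblast markers had a summed FPKM of 1966, 2067 and 1034 and none was at 0 in any library. Markers of other cells were also present. The summed FPKM of 13 visceral endoderm genes was 975, 946 and 1372, of 10 extra-embryonic ectoderm genes 117, 120 and 231, and of 12 genes of decidual and uterine stroma 1624, 298 and 934, or 120.1, 143 and 556 without the decidual prolactin *Prl8a2*, with none of these genes at 0 in any library. For 9 leukocyte genes it was 22.9, 14.3 and 38.6, with *Nkg7* at 0 in wild type and *tw18*/+ and *Gzma* at 0 in wild type and *tw18*/*tw18*. In bulk tissue, fewer cells of a type and less RNA per cell cannot be told apart.

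Of the 94 genes, 19 reached an FPKM of 1 or more in some library, 53 stayed between 0 and 1, and 22 were listed at 0 in all libraries. The number with an FPKM of 1 or more was 15 in wild type, 13 in *tw18*/+ and 16 in *tw18*/*tw18*. The summed FPKM of all members was 271 in wild type, 270 in *tw18*/+ and 347 in *tw18*/*tw18*. The sum was therefore alike in the first pair of libraries and 1.28-fold higher in *tw18*/*tw18* than in wild type. The 5 highest genes, *Cdh1*, *Pcdh1*, *Cdh2*, *Cdh3* and *Cdh5* in every library, held 85.2%, 86.9% and 78.8% of it.

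**Figure D1:**
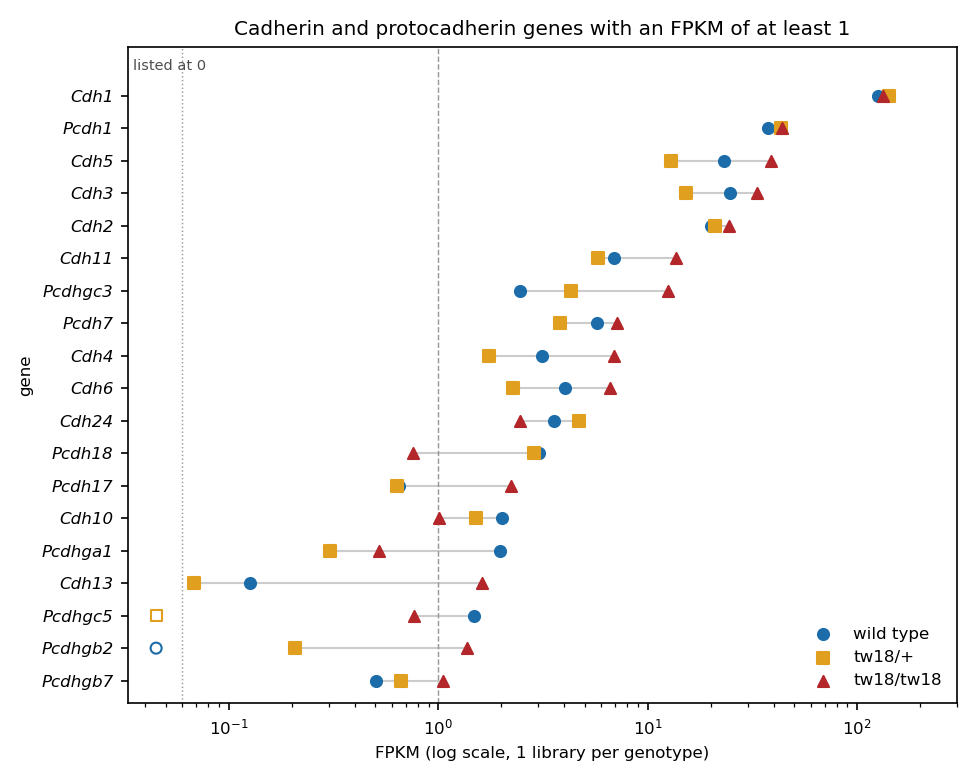
FPKM of the 19 cadherin and protocadherin genes with an FPKM of 1 or more in any library, on a log axis, with 1 symbol per genotype, each a single library, and open symbols for genes listed at 0. *Cdh1* and *Pcdh1* lead in all 3 libraries with symbols close together, while *Cdh13*, *Pcdhgc3* and *Pcdh17* in *tw18*/*tw18* lie to the right of the other symbols and *Pcdh18* to the left.

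The type I classical cadherins were led by *Cdh1*, which encodes E-cadherin. Its FPKM was 125 in wild type, 142 in *tw18*/+ and 133 in *tw18*/*tw18*, based on about 7946, 12655 and 11749 fragments. *Cdh1* lies on Chr 8 from 106603351 to 106670246 (GRCm38), and among all genes of a library it ranked 519, 470 and 425 by FPKM. The 3 values lay close together, with a log2 ratio of 0.09 for *tw18*/*tw18* against wild type (95% counting interval 0.05 to 0.13) and 0.18 for *tw18*/+ against wild type. Against *tw18*/+ the log2 ratio of *tw18*/*tw18* was -0.09, and it turned to 0.16 after rescaling to equal FPKM sums. *Cdh1* made up 58.5% of the summed cadherin FPKM in wild type, 68.1% in *tw18*/+ and 50.5% in *tw18*/*tw18*.

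*Cdh2*, the gene of N-cadherin, which marks mesoderm and neural tissue, had FPKM values of 20.03 in wild type, 20.9 in *tw18*/+ and 24.3 in *tw18*/*tw18*. It lies on Chr 18 from 16588877 to 16809246. Its log2 ratio was 0.28 for *tw18*/*tw18* against wild type (95% counting interval 0.19 to 0.38) and 0.07 for *tw18*/+ against wild type. The FPKM of *Cdh1* was 6.26 times that of *Cdh2* in wild type, 6.77 times in *tw18*/+ and 5.48 times in *tw18*/*tw18*. In the deposited FPKM at E6.5, both genes of the switch thus stayed within 1.22-fold of their wild-type level in *tw18*/*tw18*. After rescaling to equal FPKM sums these log2 ratios were 0.30 for *Cdh1* and 0.49 for *Cdh2*, above their counting intervals. In the same libraries, 5 of the 6 primitive streak and mesoderm markers with a ratio were lower in *tw18*/*tw18* than in wild type at a log2 ratio of 1 or more, and *T* and *Mesp1* were listed at 0 there. The paper describes N-cadherin as uniform in the epiblast at E6.5. In sections of older *tw18*/*tw18* embryos it found no N-cadherin protein, while E-cadherin protein was present throughout the epithelium. Protein was not measured in these libraries.

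*Cdh3* encodes P-cadherin, which is known from the placenta and from extra-embryonic tissues. Its FPKM was 24.6 in wild type, 15.2 in *tw18*/+ and 33.4 in *tw18*/*tw18*, highest in *tw18*/*tw18* and lowest in *tw18*/+. The log2 ratio of *tw18*/*tw18* was 0.44 against wild type and 1.13 against *tw18*/+. *Cdh3* starts on the same chromosome as *Cdh1* and on the same strand, from 106510891 to 106557297 on Chr 8, yet the ratio of *Cdh1* to *Cdh3* went from 5.08 in wild type to 9.31 in *tw18*/+ and 4.001 in *tw18*/*tw18*. *Cdh4*, the gene of R-cadherin, first found in the retina, had FPKM values of 3.14, 1.75 and 6.91 in wild type, *tw18*/+ and *tw18*/*tw18*, based on about 290, 227 and 886 fragments. Its log2 ratio was 1.14 for *tw18*/*tw18* against wild type (95% counting interval 0.95 to 1.33) and -0.84 for *tw18*/+ against wild type. The muscle cadherin *Cdh15* was low throughout, with an FPKM of 0.153, 0.128 and 0.257. All 5 type I genes were above 0 in every library, and *Cdh4* was the single one past a log2 ratio of 1 between *tw18*/*tw18* and wild type.

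Of the 13 type II classical cadherins, 5 reached an FPKM of 1 or more. Their summed FPKM was 40.4 in wild type, 28.2 in *tw18*/+ and 63.8 in *tw18*/*tw18*, and *Cdh5* made up 57.5%, 45.7% and 60.9% of it. *Cdh5* encodes VE-cadherin, the cadherin of the endothelial junction. Its FPKM was 23.2 in wild type, 12.9 in *tw18*/+ and 38.8 in *tw18*/*tw18*, based on about 1324, 1034 and 3072 fragments. The *tw18*/+ library was the low one and *tw18*/*tw18* the high one, with log2 ratios of 0.74 against wild type and 1.59 against *tw18*/+ for *tw18*/*tw18*, and of -0.85 for *tw18*/+ against wild type. The 11 listed endothelial markers, which do not include *Cdh5*, had a summed FPKM of 42.9, 44.9 and 96.6 in that order. In *tw18*/*tw18* 6 of the 9 with a ratio were higher than in wild type at a log2 ratio of 1 or more and none lower, and *Plvap* was listed at 0 in wild type. Of the 11, 4 had the order of *Cdh5*, lowest in *tw18*/+ and highest in *tw18*/*tw18*, among them *Pecam1* with an FPKM of 8.39, 3.23 and 14.9. The others did not, such as *Emcn* with 2.48, 4.97 and 11.8. The part of endothelial cells in the *Cdh5* values was not tested.

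*Cdh11*, which encodes the OB-cadherin of mesenchymal cells, had FPKM values of 6.94 in wild type, 5.82 in *tw18*/+ and 13.7 in *tw18*/*tw18*. *tw18*/*tw18* was again the high library, with a log2 ratio of 0.98 against wild type (95% counting interval 0.84 to 1.12), just short of the threshold of 1, and of 1.24 against *tw18*/+. The ratio against wild type passed the threshold under each of the 3 other scalings, at 1.03 where the libraries were centered on their median ratio. *Cdh6*, the gene of K-cadherin of the kidney, had FPKM values of 4.04, 2.27 and 6.62 in wild type, *tw18*/+ and *tw18*/*tw18*. Its log2 ratio of *tw18*/*tw18* was 0.71 against wild type and 1.55 against *tw18*/+. The order of the libraries was thus the same for *Cdh3*, *Cdh4*, *Cdh5*, *Cdh6* and *Cdh11*, with *tw18*/+ lowest and *tw18*/*tw18* highest. Beside these genes, 11 of the 12 listed genes of decidual and uterine stroma were higher in *tw18*/*tw18* than in wild type at a log2 ratio of 1 or more, among them *Col1a1* with an FPKM of 35.9, 32.0 and 174. The exception was *Prl8a2*, a decidual prolactin, with an FPKM of 1504, 155 and 377. Without *Prl8a2* the stroma genes summed to 120.1, 143 and 556, so that this sum was not lowest in *tw18*/+. Of the 10 extra-embryonic ectoderm markers, 8 were higher by at least as much and none lower. Over all genes, 13.8% were higher and 6.42% lower. Of the 13 visceral endoderm markers, 12 were above wild type in *tw18*/*tw18*, none by a log2 ratio of 1. In *tw18*/+, 11 of them were below wild type and 2 above. The part of these cells in the cadherin values was not tested.

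The remaining type II genes were lower in *tw18*/*tw18* or low throughout. *Cdh24* had FPKM values of 3.56 in wild type, 4.72 in *tw18*/+ and 2.47 in *tw18*/*tw18*, with a log2 ratio of -0.53 for *tw18*/*tw18* against wild type. *Cdh10*, known from the brain, had FPKM values of 2.02, 1.52 and 1.01, based on about 97, 103 and 68 fragments. Its log2 ratio of -0.999 for *tw18*/*tw18* against wild type lay just short of the threshold, with a 95% counting interval of -1.45 to -0.55. *Cdh9* stayed below 1 with an FPKM of 0.624, 0.661 and 0.449. The other type II genes above 0, *Cdh12*, *Cdh20* and *Cdh22*, had at most an FPKM of 0.342, and 4 were listed at 0 in every library. *tw18*/*tw18* was therefore the lowest library for *Cdh24*, *Cdh10* and *Cdh9*.

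*Cdh13* encodes T-cadherin, which lacks the usual membrane-spanning part and tail and is held in the membrane by a lipid anchor, and which binds adiponectin on endothelial and muscle cells. Its FPKM was 0.127 in wild type, 0.0679 in *tw18*/+ and 1.62 in *tw18*/*tw18*, based on about 7, 5 and 121 fragments. The first pair of libraries was near the lower end of what the depth can show, and only *tw18*/*tw18* exceeded an FPKM of 1. The log2 ratio of 3.68 for *tw18*/*tw18* against wild type (95% counting interval 2.58 to 4.78) was the largest of the 18 members with a ratio, and it was 4.57 against *tw18*/+. The gene spans 118283733 to 119324921 on Chr 8. Of the other 4 cadherins outside the classical types, the kidney gene *Cdh16* had FPKM values of 0.536, 0.105 and 0.368. *Cdh23*, a gene of the tip link of sensory hair cells, was listed at 0 in wild type and had FPKM values of 0.0374 in *tw18*/+ and 0.155 in *tw18*/*tw18*. The last 2 were listed at 0 in all libraries.

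The delta protocadherins were led by *Pcdh1*, a protocadherin of epithelial cells and the second highest member in every library. Its FPKM was 37.4 in wild type, 43.2 in *tw18*/+ and 43.7 in *tw18*/*tw18*, with log2 ratios against wild type of 0.21 in *tw18*/+ and 0.22 in *tw18*/*tw18*. In the deposited FPKM it thus lay within 1.17-fold of its wild-type level in both other libraries. After rescaling to equal FPKM sums the log2 ratio of *tw18*/*tw18* against wild type was 0.435. *Pcdh7*, a protocadherin of brain and heart, had FPKM values of 5.73, 3.80 and 7.15 in wild type, *tw18*/+ and *tw18*/*tw18*. It was lowest in *tw18*/+, with log2 ratios of *tw18*/*tw18* of 0.32 against wild type and 0.91 against *tw18*/+.

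*Pcdh17* and *Pcdh18* are related delta protocadherins, and they differed in opposite directions in *tw18*/*tw18*. *Pcdh17* had FPKM values of 0.647 in wild type, 0.633 in *tw18*/+ and 2.22 in *tw18*/*tw18*, based on about 108, 149 and 516 fragments. *Pcdh18* had FPKM values of 3.03, 2.86 and 0.757 in that order, based on about 225, 299 and 78 fragments. For both genes wild type and *tw18*/+ lay close together and *tw18*/*tw18* stood apart, high for *Pcdh17* and low for *Pcdh18*. The log2 ratio of *tw18*/*tw18* against wild type was 1.78 for *Pcdh17* (95% counting interval 1.48 to 2.08) and -2.00 for *Pcdh18* (-2.37 to -1.63). Against *tw18*/+ it was 1.81 for *Pcdh17* and -1.92 for *Pcdh18*, and *tw18*/+ against wild type gave -0.03 and -0.08. The comparisons share libraries and are not independent of each other. Since this pair parted within the family, the 250 bases before the start of each gene are shown, 5′ to 3′ on the strand of the gene, as given by RefSeq for GRCm38.p6, with each ATTGG, the reverse complement of the CCAAT box, in capitals. The first lies at chr14:84443313-84443562 on the plus strand and the second at chr3:49757317-49757566 on the minus strand.
*Pcdh17*: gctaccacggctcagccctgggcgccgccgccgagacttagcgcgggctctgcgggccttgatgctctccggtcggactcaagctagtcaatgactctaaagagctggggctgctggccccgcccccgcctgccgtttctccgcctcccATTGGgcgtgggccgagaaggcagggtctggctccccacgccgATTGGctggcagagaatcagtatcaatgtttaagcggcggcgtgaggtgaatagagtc
*Pcdh18*: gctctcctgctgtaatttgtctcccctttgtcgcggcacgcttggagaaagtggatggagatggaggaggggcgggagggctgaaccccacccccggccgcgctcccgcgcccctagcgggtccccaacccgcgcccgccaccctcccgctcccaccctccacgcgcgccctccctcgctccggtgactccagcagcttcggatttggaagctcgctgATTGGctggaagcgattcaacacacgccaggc
The *Pcdh17* sequence holds the letters ATTGG 2 times, 101 and 58 bases before the start, and the *Pcdh18* sequence holds them 1 time, 32 bases before the start. The longest run shared by both is GATTGGCTGG with 10 bases, and it contains the motif nearest to the start in each. The GC content was 64.8% for *Pcdh17* and 68.0% for *Pcdh18*. CCAAT on either strand, searched as CCAAT and ATTGG, was found in 14 of the 22 members with an entry in the promoter table and in 33.8% of all 32851 promoters of the same length. CAGGTG on either strand, searched also as CACCTG, is an E-box bound by SNAIL and ZEB proteins. It was found in 2 of the 22 members, *Cdh7* and *Pcdh15*, neither of which reached an FPKM of 1, and in 17.2% of all promoters. The promoters of *Cdh1*, *Cdh2*, *Cdh3*, *Cdh5*, *Cdh11* and *Cdh13* were not searched. Members were counted by gene, with a match in any promoter of the gene, and the background by promoter, so these shares differ in unit. A match is a description of these letters and not a measured site.

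The other delta and non-clustered protocadherins stayed below an FPKM of 1. *Pcdh19*, known for an epilepsy that mainly affects girls, had FPKM values of 0.0492 in wild type, 0.337 in *tw18*/+ and 0.663 in *tw18*/*tw18*, based on about 7, 71 and 138 fragments. *Pcdh12*, known from endothelial and placental cells, was listed at 0 in wild type and had FPKM values of 0.0186 in *tw18*/+ and 0.719 in *tw18*/*tw18*, the last from about 80 fragments. Both were highest in *tw18*/*tw18*. *Pcdh8*, which encodes the paraxial protocadherin of early mesoderm, had FPKM values of 0.543 in wild type and 0.112 in *tw18*/+ and was listed at 0 in *tw18*/*tw18*. It rests on about 31 and 9 fragments and went the way of the streak and mesoderm markers. *Pcdh9* was listed at 0 in wild type and had FPKM values of 0.485 in *tw18*/+ and 0.0571 in *tw18*/*tw18*. *Pcdh10*, *Pcdh11x*, *Pcdh15* and *Pcdh20* had at most an FPKM of 0.137 in any library.

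**Figure D2:**
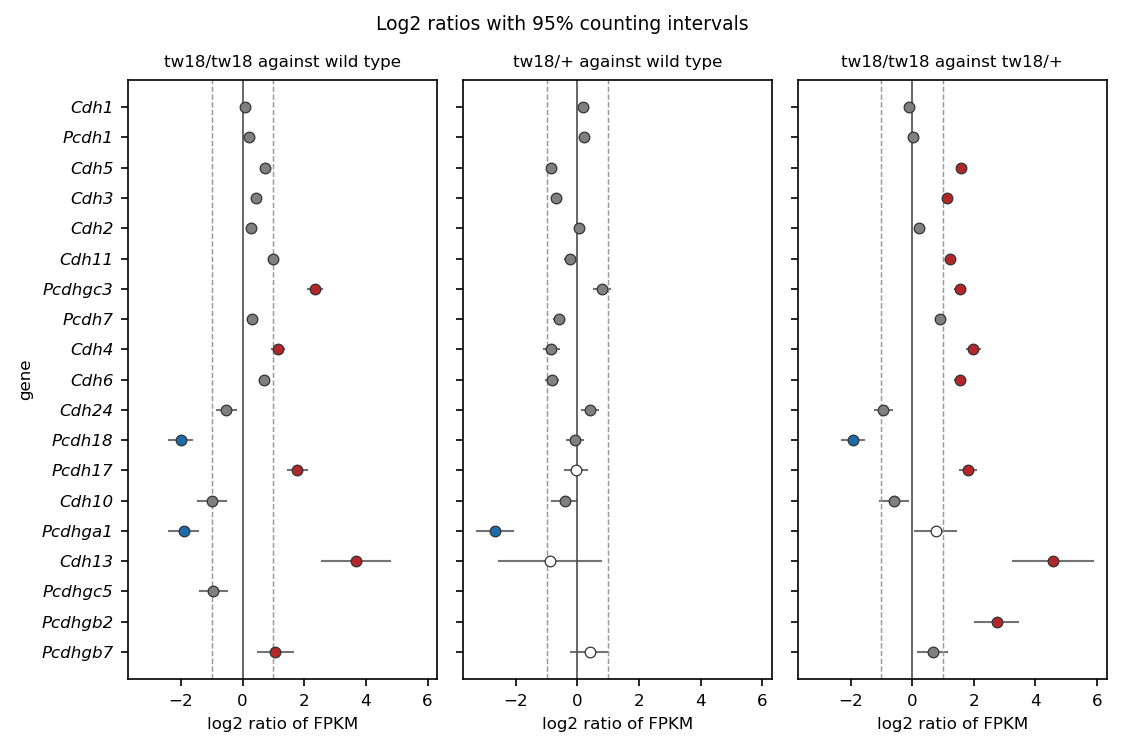
Log2 ratio of FPKM of the 19 genes in each pair of libraries, with 95% counting intervals as bars where they are wider than the symbol, dashed lines at a log2 ratio of 1 in either direction, red and blue for genes past them, and white where both values were below 1. Genes listed at 0 in 1 library of the pair have no symbol. *Cdh13* is farthest to the right in *tw18*/*tw18* against wild type at 3.68, and most symbols in *tw18*/+ against wild type lie to the left of 0.

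Of the 59 genes of the protocadherin clusters, which lie side by side on Chr 18, 5 reached an FPKM of 1 or more and all 5 belong to the gamma cluster. The 22 gamma genes had a summed FPKM of 7.83 in wild type, 8.54 in *tw18*/+ and 23.3 in *tw18*/*tw18*, and 10, 15 and 21 of them were above 0. In *tw18*/*tw18* the sum was 2.98-fold that of wild type, at a log2 ratio of 1.58. *Pcdhgc3*, 1 of the C-type genes at the end of the cluster, was the highest gamma gene in every library. Its FPKM was 2.45 in wild type, 4.30 in *tw18*/+ and 12.5 in *tw18*/*tw18*, based on about 165, 407 and 1166 fragments. The level was thus lowest in wild type and highest in *tw18*/*tw18*, with log2 ratios against wild type of 0.81 in *tw18*/+ and 2.35 in *tw18*/*tw18* (95% counting interval 2.11 to 2.58).

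Other gamma genes did not keep this order. *Pcdhga1*, the first gene of the cluster, had FPKM values of 1.97 in wild type, 0.306 in *tw18*/+ and 0.521 in *tw18*/*tw18*, based on about 132, 29 and 49 fragments. It was highest in wild type, with log2 ratios of -2.68 in *tw18*/+ and -1.92 in *tw18*/*tw18* against it. *Pcdhgc5* was at 1.48 FPKM in wild type, listed at 0 in *tw18*/+ and at 0.766 FPKM in *tw18*/*tw18*. *Pcdhgb2* was listed at 0 in wild type and had FPKM values of 0.206 in *tw18*/+ and 1.38 in *tw18*/*tw18*. *Pcdhgb7* had FPKM values of 0.503, 0.667 and 1.05, and its log2 ratio of 1.07 for *tw18*/*tw18* against wild type lay just past the threshold, with a 95% counting interval of 0.51 to 1.63. Wild type was the high library for *Pcdhga1*, *Pcdhgc5* and *Pcdhgc4* and the low one for *Pcdhgc3*, *Pcdhgb2* and *Pcdhgb7*. Each gamma gene has its own first exon and shares the last exons with the rest, and 31.9% to 65.3% of the 50 bp words of a gamma transcript occur in another gene. Fragments can therefore be split between these genes, and the values of single gamma genes are less certain than their sum.

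The 22 beta genes have no shared exons, and 0% to 11.99% of their 50 bp words occur in another gene. None reached an FPKM of 1, the highest being 0.454 for *Pcdhb19* in *tw18*/*tw18*. Only *Pcdhb12* was above 0 in wild type, against 12 beta genes in *tw18*/+ and 15 in *tw18*/*tw18*. Of the 18 beta genes above 0 in any library, these are 5.56%, 66.7% and 83.3%. Among all genes with a highest FPKM above 0 and under 2, the shares were 60.1%, 78.7% and 79.2%. Summed over the cluster the FPKM was 0.239, 0.934 and 3.31, based on about 10, 106 and 308 fragments. Scaled to the depth, this was 0.675 per 1000000 fragments in wild type (95% counting interval 0.32 to 1.24), 5.09 in *tw18*/+ (4.17 to 6.15) and 15.0 in *tw18*/*tw18* (13.3 to 16.7). These intervals do not overlap, but an exact 0 in this table can also be a failed estimate, so that no ratio to wild type is given. Between the deeper libraries, which were close in depth, the sum was 3.55-fold higher in *tw18*/*tw18* than in *tw18*/+. Of the 15 alpha genes, 11 were at 0 in all libraries. *Pcdha12* was above 0 in wild type with an FPKM of 0.579, *Pcdhac2* in *tw18*/+ and *tw18*/*tw18* with 0.230 and 0.432, and up to 90.1% of an alpha transcript's words are shared.

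**Figure D3:**
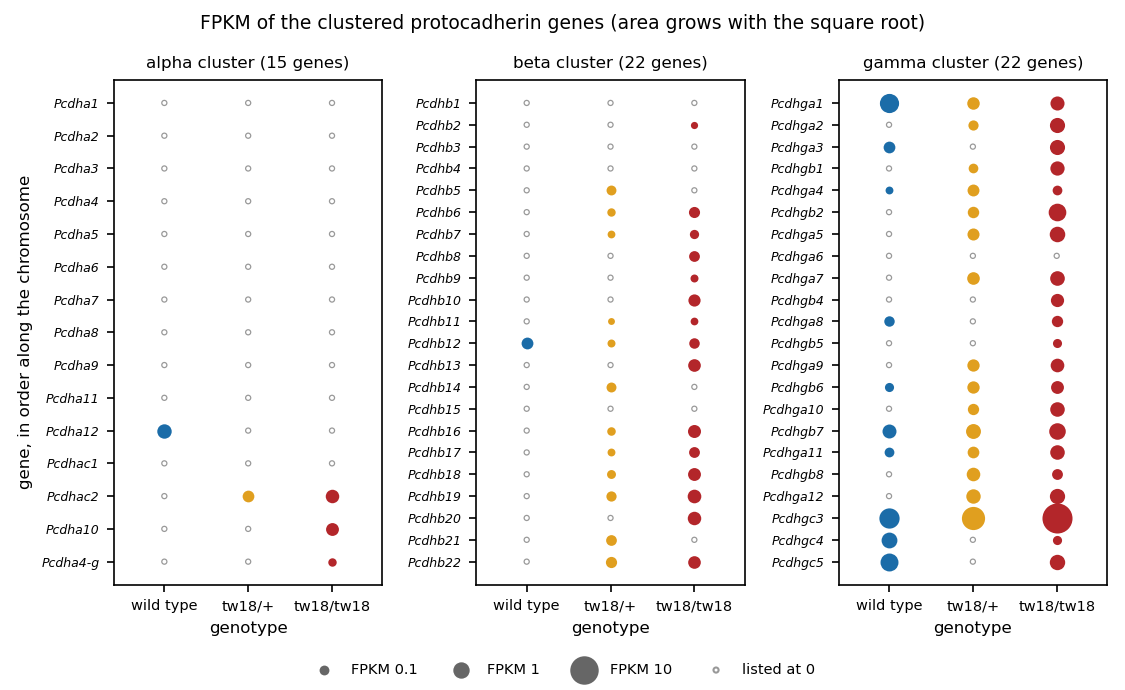
FPKM of the 59 clustered protocadherin genes in the 3 libraries, with genes from top to bottom in their order along the chromosome except *Pcdha10* and *Pcdha4-g*, which had no position and stand last, symbol area growing with the square root of the FPKM, and open circles for genes listed at 0. Filled symbols increase from wild type to *tw18*/*tw18* in the beta cluster, with 1, 12 and 15 genes, and in the gamma cluster, with 10, 15 and 21. Among all genes with a highest FPKM above 0 and under 2, 60.1%, 78.7% and 79.2% were above 0.

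Low genes are listed at 0 more often in a shallower library, and wild type was the shallowest. Among all genes with a highest FPKM above 0 and under 2, 60.1% were above 0 in wild type, 78.7% in *tw18*/+ and 79.2% in *tw18*/*tw18*. Of the 58 members in this range, 32.8%, 69.0% and 87.9% were above 0. Of the 42 clustered protocadherins among them the shares were 26.2%, 64.3% and 90.5%, and of the 16 other members 50%, 81.2% and 81.2%. For the 20 gamma genes in this range they were 45.0%, 70.0% and 100%. The share of the clustered genes was thus below that of all genes in wild type and above it in *tw18*/*tw18*, while that of the 16 others was near it outside wild type. The part of depth and of failed estimates in these zeros was not tested.

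Between *tw18*/*tw18* and wild type, 18 members had an FPKM of 1 or more in either library and a ratio, and *Pcdhgb2* came in addition as listed at 0 in wild type. Of the 18, 5 were higher in *tw18*/*tw18* at a log2 ratio of 1 or more, namely *Cdh4*, *Cdh13*, *Pcdh17*, *Pcdhgb7* and *Pcdhgc3*, and *Pcdh18* and *Pcdhga1* were lower. This is 27.8% higher and 11.1% lower, against 13.8% higher and 6.42% lower over all 12625 genes with a ratio. Of these members, *Cdh13*, *Pcdh17* and *Pcdhgb7* passed the filter only through *tw18*/*tw18*. *Pcdh18* and *Pcdhga1* passed it only through wild type. The same filter was used for all genes, and the shares describe these libraries only. The median log2 ratio was 0.38 over the members and -0.02 over all genes. With a pseudocount of 1 the members higher were 3, *Cdh13*, *Pcdhgc3* and *Pcdhgb2*, and the member lower was *Pcdh18*, while the shares of all genes came to 9.5% and 4.12%. With a filter at an FPKM of 2 they were *Cdh4*, *Pcdh17* and *Pcdhgc3*, again with *Pcdh18* lower, beside 12% and 5.37% of all genes. After rescaling to equal FPKM sums *Cdh11* joined those higher, while the background moved to 18.1% higher and 4.32% lower.

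Between *tw18*/+ and wild type no member was higher at a log2 ratio of 1 or more, against 4.0% of all genes, and 1 of 14, *Pcdhga1*, was lower, against 4.66%. The median log2 ratio of the 14 was -0.33, with 5 above 0 and 9 below, and that of all genes was 0.0. Among the 9 were *Cdh3*, *Cdh4*, *Cdh5*, *Cdh6* and *Pcdh7*, at log2 ratios from -0.85 to -0.59. *Pcdhga1* passed the filter only through wild type. *Pcdhgc5* had no ratio, since it was listed at 0 in *tw18*/+.

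Between *tw18*/*tw18* and *tw18*/+, 9 of 17 members were higher in *tw18*/*tw18*, against 14.3% of all genes, and *Pcdh18* alone was lower, against 5.3%. The 9 were *Cdh3*, *Cdh4*, *Cdh5*, *Cdh6*, *Cdh11*, *Cdh13*, *Pcdh17*, *Pcdhgb2* and *Pcdhgc3*. Their group held 52.9% of the members with a ratio, and the median log2 ratio was 1.13 over the members and 0.0 over all genes. *Cdh13*, *Pcdh17* and *Pcdhgb2* passed the filter only through *tw18*/*tw18*, and *Pcdh18* only through *tw18*/+. The larger number than against wild type came from *Cdh3*, *Cdh5*, *Cdh6* and *Cdh11*, of which the FPKM was lowest in *tw18*/+, and from *Pcdhgb2*, while *Pcdhgb7* was not among the 9. Since each pair of comparisons shares a library, a low value in *tw18*/+ enters both comparisons that hold it.

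The 3 most abundant catenin genes, *Ctnnb1*, *Ctnna1* and *Ctnnd1*, stayed close to their wild-type level. *Ctnnb1*, the gene of beta-catenin, had FPKM values of 241 in wild type, 211 in *tw18*/+ and 221 in *tw18*/*tw18*. *Ctnna1*, for alpha-catenin, had 83.7, 72.0 and 78.5, and *Ctnnd1*, for p120-catenin, had 61.7, 59.5 and 69.5. The log2 ratios of *tw18*/*tw18* against wild type were -0.12, -0.09 and 0.17, and the negative ones turn positive after rescaling to equal FPKM sums. *Jup*, for the plakoglobin of adherens junctions and desmosomes, had FPKM values of 20.9, 19.4 and 30.4. Of the 23 genes listed for catenins and the adherens junction with a ratio, 3 were higher and 1 lower in *tw18*/*tw18* than in wild type at a log2 ratio of 1 or more, near the 13.8% higher and 6.42% lower of all genes. The largest ratio was 1.78 for the nectin gene *Pvrl4*, at an FPKM of 0.465, 1.06 and 1.60, and the smallest was -2.81 for *Ctnnd2*, at 1.29, 0.802 and 0.184, a catenin of the p120 family known from neurons. *Ctnna2*, a neural alpha-catenin below an FPKM of 1, had 0.683, 0.286 and 0.0523. The median over the 23 was -0.06, which also turns positive after that rescaling.

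Among 6 desmosome genes with a ratio, 2 were higher and none lower in *tw18*/*tw18* than in wild type, with a median log2 ratio of 0.70. The same shares of all genes, 13.8% higher and 6.42% lower, stand behind this and the next counts. They ranged from -0.03 for *Pkp2*, with an FPKM of 17.7, 19.2 and 17.3, to 2.36 for *Pkp3*, with 0.383, 1.73 and 1.97. The desmosomal cadherins *Dsg2* and *Dsc2* had ratios of 0.52 and 1.18. Of 12 other genes of the cadherin superfamily, 2 were higher and 2 lower, at a median of 0.09. *Cdhr5*, a protocadherin of intestinal microvilli, was highest at 3.01, with an FPKM of 0.690, 1.24 and 5.57, and *Clstn3*, a neuronal calsyntenin, was lowest at -1.34, with 6.14, 4.75 and 2.42.

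Of 17 regulators known to act on the cadherin switch or on epithelial state, 6 were higher and 2 lower in *tw18*/*tw18* than in wild type, with a median log2 ratio of 0.69. They are transcription factors except for the splicing regulators *Esrp1* and *Esrp2*, and *Esrp2* was among the 6 at a log2 ratio of 1.14. The largest ratio was 1.66 for *Snai2*, which encodes the repressor SLUG, at an FPKM of 1.08 in wild type, 2.58 in *tw18*/+ and 3.42 in *tw18*/*tw18*. The smallest was -1.06, shared by *Eomes*, a T-box factor of the streak, at 77.1, 58.0 and 37.0, and *Grhl1*, an epithelial factor, at 1.004, 0.867 and 0.481. Both lower genes came under the threshold after rescaling to equal FPKM sums, and the list held switch factors and epithelial factors on both sides. *Snai1*, the repressor of *Cdh1* in the streak, had a log2 ratio of -0.32 at an FPKM of 21.6, 13.8 and 17.3, and *Zeb2* had 1.51 at 2.25, 1.67 and 6.41. These *Snai1* and *Zeb2* values were chosen after they had been seen.

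**Figure D4:**
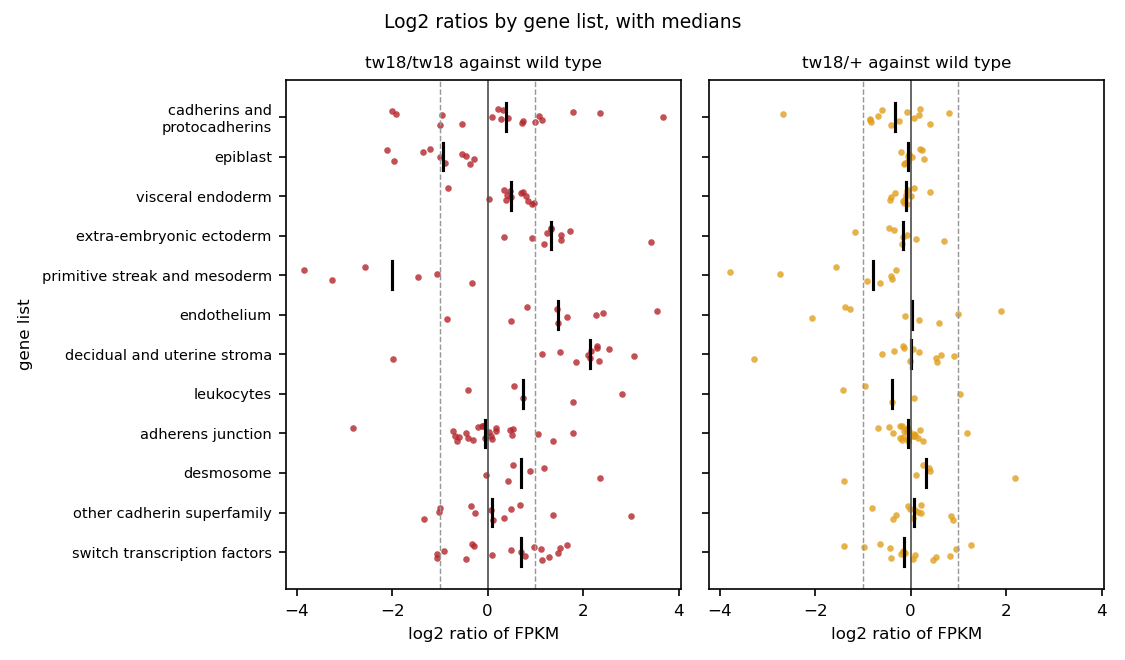
Log2 ratio of FPKM of the genes in each list, 1 point per gene with an FPKM of 1 or more in either library, the list's median as a black bar, and dashed lines at a log2 ratio of 1 in either direction. In *tw18*/*tw18* against wild type the median is 0.38 for the cadherins and protocadherins and -0.06 for the adherens junction, and it is highest for decidual and uterine stroma at 2.15 and lowest for primitive streak and mesoderm at -2.00. In *tw18*/+ against wild type the cadherin median is -0.33.

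By annotation, 92 of the 94 members had a position on GRCm38. No member with a position lies on Chr 17, the chromosome of the deletion, so none of these was removed with it. *Pcdha10* and *Pcdha4-g* had no position. On Chr 18 lie 60 members, of which *Cdh2*, *Pcdh1* and *Pcdh12* are outside the clusters, and on Chr 8 lie 8. On Chr 8 are *Cdh1*, *Cdh3*, *Cdh5*, *Cdh11* and *Cdh13*, whose log2 ratios of *tw18*/*tw18* against wild type went from 0.09 to 3.68.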

How the data were processed

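The authors sequenced strand-specific libraries of ribosomal RNA-depleted total RNA as 50 bp paired-end reads, mapped them to mm10 (GRCm38) with TopHat and calculated FPKM with Cuffdiff. The deposited FPKM table of 23421 genes by 3 libraries was used as it stands. The gene annotation given to Cuffdiff and its library normalization are not given in the sources used here. The submitters' processing notes list TopHat2 version 2, Bowtie 1.0.0 and Cufflinks 2.2.1.

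Scripts ran under Python 3.11.15 with pandas 2.3.3, numpy 2.4.6, matplotlib 3.10.9 and, for counting intervals, scipy 1.17.1. A gene counted as higher or lower at a log2 FPKM ratio of at least 1, without a pseudocount, if its FPKM was at least 1 in either library of the pair. Genes listed at 0 were given no ratio. With 1 library per genotype, no difference was given a significance test. The script that counts such genes was first checked on a simulated table with known ratios. Depth came from the steps of low FPKM values of single-transcript genes, with an allowance of 150 bp for fragment length. The step was chosen as the one that brought these values closest to whole fragments. With it, 75.5% to 81.3% of the same values lay within 0.2 of a whole fragment, which is therefore no independent check. Positions, lengths and shared 50 bp words came from GENCODE M21, and promoters from RefSeq, which held 22 of the 94 members.

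The members and gene lists were chosen with earlier results of these data known. Named were all members with an FPKM of at least 1 in any library, other members with an FPKM from 0.1 to 1 mainly by range, the largest and smallest ratio of each partner list, and the main catenins. Further genes are examples chosen after their values were seen. The alternatives were pseudocounts of 1 and 0.1, an FPKM filter of 2 or none, a log2 threshold of 2, 3 scalings, and, added after seeing the data, each protocadherin cluster summed.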

Additional observations from a re-analysis of the deposited data

How the results depend on the processing

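Between *tw18*/*tw18* and wild type, 5 members were higher and 2 lower. These counts were 3 and 1 with a pseudocount of 1 (all genes 9.5% and 4.12%), 3 and 1 with an FPKM of at least 2 (12% and 5.37%), 10 and 4 with no filter on low values (16.0% and 8.42%), and 2 and 0 at a log2 ratio of at least 2 (4.25% and 1.66%). With each protocadherin cluster summed, an alternative chosen after seeing the data, 1 member was lower. Between *tw18*/+ and wild type, 0 members were higher and 1 lower. The lower count was 2 with a pseudocount of 1 or 0.1, 0 with an FPKM of at least 2 and 0 with clusters summed, and with no filter 4 were higher and 5 lower (all genes 6.94% and 7.88%). Between *tw18*/*tw18* and *tw18*/+, 9 were higher and 1 lower, which became 28 and 4 with no filter (all genes 17.7% and 7.34%) and 2 and 0 at a log2 ratio of at least 2 (4.09% and 1.12%). The other count alternatives stayed within 1.5 times. Fewer or more genes enter by construction when the filter or threshold moves, and the cause of the other moves was not tested. Of 355 values computed in the alternatives, 289 stayed within their tolerance, 66 moved and 0 of those past the threshold changed sign. The last count was fixed by construction. Filters leave the ratio of a gene as it is, pseudocounts keep its sign, and the scalings shifted it by at most 0.247. The 289 also include gene ratios that the filters could not move.

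No paired analysis was possible because each genotype has 1 library. Each library was needed for its genotype, so none was left out. Wild type was the shallowest library, with the most genes listed at 0, and Cuffdiff also writes a 0 where it gives no estimate. The FPKM of genes that share sequence, in the gamma and alpha clusters, depends on how fragments were divided between them.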
